A study of Drosophila melanogaster with 57 samples.

Results

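The small nucleolar RNA (snoRNA) genes of Drosophila melanogaster were set against a list of 3356 genomic regions called as piRNA clusters from small RNA reads. The study presents these regions as newly identified clusters, apart from the canonical clusters known before. Whether snoRNA genes outside the list lie in a canonical cluster was not tested. Members were all genes whose symbol starts with snoRNA: in the dm6 annotation, and 257 of the 18277 annotated genes on the assembled chromosomes met this rule. A member was counted as in a region when they shared 1 bp or more, and each member was assigned to the gene on the same strand that contains it whole (its host). The hosts were grouped as ribosomal protein genes (symbols RpL or RpS), other protein-coding genes and non-coding genes, which are mostly the U snoRNA host genes (Uhg). Of the 257 snoRNA genes, 231 (89.9%) were in a region and 26 were not.

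The small RNA libraries came from 6 groups with 3 libraries each, 18 libraries in all. They were WT ovaries (w1118), ovaries in which nos-gal4 drives UASp-tkvM1 (a constitutively active BMP type I receptor) in germ cells, bamΔ86 mutant ovaries, ovaries carrying bgcn20093 and bgcn20915, cultured germline stem cells (GSCs) and the somatic support cells (SCs) grown with them. The bam mutant libraries are labelled bam86-E5, and what E5 stands for is not given in the sources used here. The cultured cells came from 1 established line with vasa-GFP, hs-bam and bamΔ86, in which GFP-positive cells were sorted as GSCs and GFP-negative cells as SCs, and the whole ovaries also hold somatic cells. The deposited list is 1 set of start and end positions with no read count, strand or sample, and the libraries scanned to make it are not given in the sources used here, so the regions could not be split by genotype or cell type and no value below has a replicate error. Counts per group that accompany the paper were not used here.

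snoRNAs are short nuclear RNAs that guide chemical modification of other RNAs, mainly ribosomal RNA. Box C/D snoRNAs direct ribose methylation and H/ACA snoRNAs direct pseudouridylation, and in flies most of them are cut out of the introns of host genes after splicing. piRNAs are small RNAs bound by PIWI proteins that silence transposable elements in the gonad, and loci dense in them are called piRNA clusters.

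The sequences of snoRNA genes from 1 host of each kind are printed to show what lies inside these regions, read on the strand of each gene from the RefSeq dm6 genome (Release 6 plus ISO1 MT). RpS5a on chromosome X, which encodes a protein of the small ribosomal subunit, held 14 H/ACA genes. The first 4 in genome order shared the name Psi28S-1192, which gives a pseudouridine of 28S rRNA. They lay at chrX:17143934-17144068, chrX:17144107-17144240, chrX:17144283-17144420 and chrX:17144435-17144574, all on the minus strand. Capitals mark the ACA searched for in the last 6 nt.
snoRNA:Psi28S-1192d: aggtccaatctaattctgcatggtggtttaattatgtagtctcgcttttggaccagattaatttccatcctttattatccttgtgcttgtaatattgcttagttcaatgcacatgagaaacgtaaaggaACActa
snoRNA:Psi28S-1192c: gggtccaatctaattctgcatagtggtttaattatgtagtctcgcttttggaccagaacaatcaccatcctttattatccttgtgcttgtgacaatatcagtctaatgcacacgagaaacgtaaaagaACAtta
snoRNA:Psi28S-1192b: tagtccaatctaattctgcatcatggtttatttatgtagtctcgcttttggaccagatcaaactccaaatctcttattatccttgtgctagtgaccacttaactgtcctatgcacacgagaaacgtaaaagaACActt
snoRNA:Psi28S-1192a: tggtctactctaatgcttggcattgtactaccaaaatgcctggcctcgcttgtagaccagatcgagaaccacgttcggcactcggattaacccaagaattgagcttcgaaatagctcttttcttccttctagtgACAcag
The copies d and c were 87.4% identical over the longer length and b was 81.2% identical to d, whereas a shared only 50 to 53.6% with the others.

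Arpc2 on chromosome 2L, which encodes a subunit of the Arp2/3 complex that nucleates actin filaments, held 17 H/ACA genes, more than any other host. The first 4 lay on the plus strand at chr2L:20418348-20418481, chr2L:20418523-20418654, chr2L:20418670-20418804 and chr2L:20418834-20418967, with the ACA again in capitals.
snoRNA:Psi18S-525a: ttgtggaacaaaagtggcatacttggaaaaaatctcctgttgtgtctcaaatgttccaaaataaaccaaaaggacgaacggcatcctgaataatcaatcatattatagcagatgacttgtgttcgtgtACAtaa
snoRNA:Psi18S-640a: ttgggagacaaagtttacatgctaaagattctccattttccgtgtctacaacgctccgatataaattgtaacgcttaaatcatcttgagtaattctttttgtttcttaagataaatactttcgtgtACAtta
snoRNA:Psi18S-525b: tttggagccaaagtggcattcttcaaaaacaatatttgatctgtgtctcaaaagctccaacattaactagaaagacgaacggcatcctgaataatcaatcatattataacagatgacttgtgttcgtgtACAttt
snoRNA:Psi18S-525c: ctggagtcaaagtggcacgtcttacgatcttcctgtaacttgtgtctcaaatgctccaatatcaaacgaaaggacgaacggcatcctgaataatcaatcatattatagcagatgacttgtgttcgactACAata
The 3 copies of Psi18S-525, named for a pseudouridine of 18S rRNA, were 78.4 to 83.7% identical to each other, and Psi18S-640a was 59.7 to 62.2% identical to them.

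The non-coding host lncRNA:CR45184 on chromosome 3L held 5 members, and the first 4 in genome order, which form 2 pairs of box C/D copies, are shown. They lay on the minus strand at chr3L:827075-827144, chr3L:827312-827383, chr3L:827537-827620 and chr3L:827764-827843, and capitals mark the C box (TGATGA, searched for in the first 20 nt) and the D box (CTGA, searched for in the last 20 nt).
snoRNA:Me28S-C788b: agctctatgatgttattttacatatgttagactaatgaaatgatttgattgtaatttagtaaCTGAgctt
snoRNA:Me28S-C788a: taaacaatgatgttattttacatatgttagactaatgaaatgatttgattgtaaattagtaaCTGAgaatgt
snoRNA:Me28S-G3113b: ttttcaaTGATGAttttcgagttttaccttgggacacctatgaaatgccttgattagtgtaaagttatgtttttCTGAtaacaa
snoRNA:Me28S-G3113a: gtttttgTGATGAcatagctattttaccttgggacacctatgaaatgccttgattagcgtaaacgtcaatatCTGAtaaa
The C788 pair was 87.5% identical and held no TGATGA in that window, and the G3113 pair was 76.2% identical.

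Uhg8, also on chromosome 3L, was the only host with 3 or more members that had none in a region, and its members were picked for printing after their values were seen. They lay on the plus strand at chr3L:20454007-20454085, chr3L:20454246-20454324 and chr3L:20454496-20454574, with the C and D boxes in capitals.
snoRNA:Me18S-U1356a: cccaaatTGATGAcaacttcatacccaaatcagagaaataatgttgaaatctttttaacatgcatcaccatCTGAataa
snoRNA:Me18S-U1356b: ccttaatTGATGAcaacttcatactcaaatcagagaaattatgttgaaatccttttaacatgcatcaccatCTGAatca
snoRNA:Me18S-U1356c: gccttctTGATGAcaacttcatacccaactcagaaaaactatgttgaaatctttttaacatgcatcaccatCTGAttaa
These 3 copies were 87.3 to 92.4% identical to each other and lay 12784, 13023 and 13273 nt from the nearest region.

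Among all box C/D members, 74 of 110 (67.3%) had both the C and the D box in these end windows, against 0 of 110 windows of the same length placed 200 nt upstream. The ACA was found at the end of 107 of 115 H/ACA members (93.0%) and of 12 of 115 upstream windows (10.4%). Inside regions the shares were 70.1% of 97 C/D and 94.5% of 109 H/ACA genes, and outside they were 46.2% of 13 and 66.7% of 6. Only the strand of the gene was searched, and the window for the ACA lies inside the window for the D box.

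The 231 members in regions can be read against other annotated genes. The regions cover 29.4% of the bases of the assembled chromosomes, and 41.2% of the 18020 other genes shared 1 bp or more with a region. For other genes of at most 600 nt, with a median length of 333 nt, the share was 33.2%, while the snoRNA genes had a median length of 134 nt. Among other small RNA genes, 49.3% of 290 tRNA genes, 81.2% of 32 snRNA genes, 76.5% of 17 scaRNA genes and 36.5% of 260 microRNA genes were in regions. snoRNA genes thus stood above tRNA and microRNA genes and nearest to snRNA genes, which form the core of the spliceosome, and scaRNA genes, which guide modification of snRNAs. No test of these differences was made. When the list of members was shifted along each chromosome through every offset 100 nt apart, a mean of 78.5 members met a region. The middle 95% ran from 42 to 117 over all combinations of offsets, with each chromosome shifted independently of the others. Members of 1 host sit in the same region and are not independent, so these offsets are given as a description and no test was made.

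All 69 members in ribosomal protein hosts were in a region. These 69 genes sat in 27 hosts, and the shifted positions met a mean of 18.98 members (6 to 36 for the middle 95% of combinations of offsets). Non-coding hosts followed, with 51 of 55 members (92.7%, shifted mean 18.72, 1 to 39), then other protein-coding hosts with 97 of 112 (86.6%, shifted mean 33.85, 13 to 59). The 21 members with no host were in a region least often, with 14 (66.7%, shifted mean 6.948, 2 to 12). All 4 counts lay above the range of the shifted positions. With only regions of at least 10000 nt, 3 of them came within it, at 22 for ribosomal protein hosts (3 to 30), 41 for other protein-coding hosts (7 to 50) and 8 for no host (1 to 11), and the no-host count did so already at 5000 nt, with 9 (1 to 12).

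**Figure D1:**
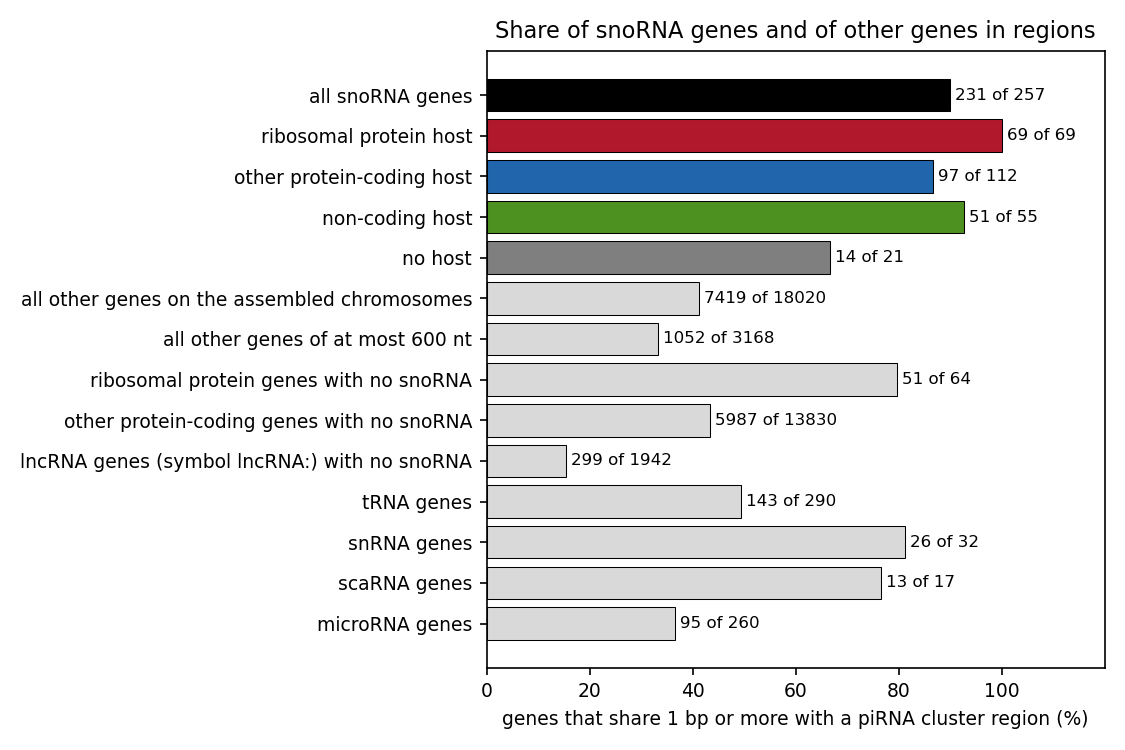
Share of genes that share 1 bp or more with a piRNA cluster region (x axis, %) for the snoRNA classes and for other kinds of gene. The bars for host classes count snoRNA genes, and reach 100% for ribosomal protein hosts and 92.7% for non-coding hosts. The other bars count the genes named, with 79.7% for ribosomal protein genes with no snoRNA and 15.4% for lncRNA genes with no snoRNA.

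The hosts were next set beside genes of the same kind that contain no snoRNA gene on their strand. A region touched 27 of 27 ribosomal protein genes with a snoRNA and 51 of 64 (79.7%) without one, so most of this class was in regions with or without a snoRNA. Of the ribosomal protein hosts, 20 lay wholly in regions, as did 41 of the genes without a snoRNA, and the median gene was 100% covered in both groups, although hosts were longer (median 1792 nt against 1125.5 nt). RpL23A, which lay 100% in regions, was in neither group, because the 4 snoRNA genes it contains were assigned to the shorter Uhg7. The 13 untouched ribosomal protein genes were RpL10Aa, RpL22-like, RpL24-like, RpL37-1, RpL37-2, RpL7-like, RpLP0-like, RpS10a, RpS21, RpS23, RpS28-like, RpS28a and RpS30, several of which are named as paralogs of another ribosomal protein gene. Regions touched 84.4% of the 45 other protein-coding hosts against 43.3% of 13830 such genes without a snoRNA, and 80.0% of the 10 non-coding hosts against 15.4% of 1942 lncRNA genes without one. Hosts in the protein-coding class were also longer, with a median of 5773 nt against 2169.5 nt. Non-coding hosts had a median of 1739.5 nt against 662 nt for the lncRNA genes. The part of length in these shares was not tested. The members of lncRNA:CR45184, Uhg7 and lncRNA:CR42491 also lie inside Sf3b3, RpL23A and RpL22 on the same strand. Cover of these non-coding hosts cannot be told apart from cover of the enclosing genes.

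Ribosomal protein hosts were the most evenly covered. RpS5a lay whole in a region of 5900 nt (chrX:17142401-17148300), and snoRNA genes filled 33.6% of that region. RpS7, another small-subunit protein gene, held 7 members in a region of only 2435 nt (chr3R:30206536-30208970) that was narrower than the gene itself (2574 nt) and was 40.0% snoRNA sequence. RpL28 and RpS16 held 5 members each, RpL17 and RpL3 held 4 each, and RpS4 held 3. RpL13A, RpL14, RpL15, RpS12 and RpS20 held 2 each. RpL10Ab, RpL11, RpL22, RpL27A, RpL30, RpL36A, RpL4, RpL5, RpL7A, RpS29, RpS3A, RpS6 and RpS9 held 1 each. RpS4 and RpS12 were in the same region (chr3L:13018382-13044570). Cover of these genes ran from 94.6% in RpS7 to 100%. The sta gene, which encodes the ribosomal protein RpSA but carries another symbol, was counted with the other protein-coding hosts and had both of its members in a region.

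Non-coding hosts were nearly all or not at all in regions. Uhg1 held 16 members, Uhg5 held 11, Uhg4 held 7, Uhg2 and Uhg7 held 4 each and Uhg3 held 3, all of them in regions that covered 100% of the host. lncRNA:CR45184 (5 members, 98.8% of the host) lies inside Sf3b3, a splicing factor subunit gene with 4 members of its own. Both were in the same region, so that 9 members lay there. lncRNA:CR42491, which lies inside RpL22, had its 1 member in a region. No base of Uhg8 or of lncRNA:CR31647, with 1 member, was in a region.

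Among other protein-coding hosts the genes with most members were Arpc2 (17), dom (15), kra (8), Hrb98DE (7) and Nop60B (7), and all of these members were in regions. dom encodes the ATPase of a chromatin remodelling complex, Hrb98DE an RNA-binding protein of the hnRNP family, and kra a regulator of translation. CG10576 (5), Sf3b3 (4), lola (4, a transcription factor gene) and pAbp (3, the poly(A)-binding protein) were likewise complete. The region over Arpc2 (chr2L:20415159-20423084, 7926 nt) held more members than any other and was 28.4% snoRNA sequence. Nop60B encodes the pseudouridine synthase of H/ACA particles, and 2 separate regions covered 53.3% of it, 1 over its snoRNA gene Psi18S-1820 and 1 over the other 6 members. Fib and nop5, which encode core proteins of C/D particles and were chosen after their values were seen, each had 1 member and lay 100% in regions.

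**Figure D2:**
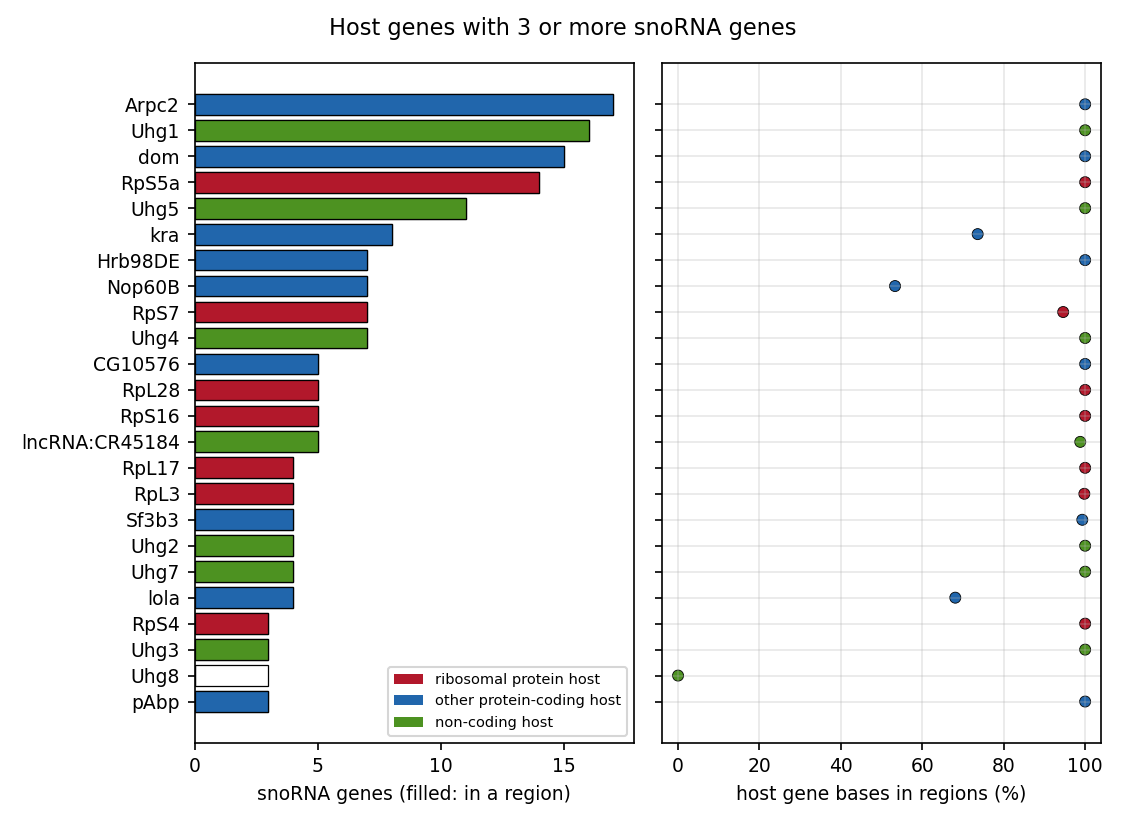
The 24 hosts with 3 or more snoRNA genes, with the number of members on the left (filled part: in a region) and the percent of host bases in regions on the right. Uhg8 is the only host with an empty bar, and kra (73.6%), lola (68.1%) and Nop60B (53.3%) are covered in part although all their members are in regions.

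No host had some members in and some out. Of 82 hosts, 65 had every member in a region and 17 had none, and 8 of the 17 were still touched elsewhere by a region. Hosts with 3 or more members gave 162 of 165 members in regions, while hosts with a single member gave 29 of 45. Within the single-member hosts the split was 13 of 13 for ribosomal protein genes, 15 of 30 for other protein-coding genes and 1 of 2 for non-coding genes.

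Within the hosts, regions covered 100% of snoRNA bases, 100% of other intron bases and 99.4% of exon bases in ribosomal protein hosts. In other protein-coding hosts they covered 84.3% of snoRNA bases, 57.6% of exon bases and 13.8% of other intron bases. In the 44 of these hosts with an intron, the snoRNA share was above the share of other intron in 11, below it in 7 and equal in 26. Usp10, SC35 and gcl, all from the 11, were chosen after their values were seen. Usp10, a ubiquitin protease gene, had both snoRNA genes in a region with 3.62% of its other intron and 73.0% of its exon bases. The SR splicing factor gene SC35 had 19.8% of other intron and 77.8% of exon, and gcl, a gene needed to form germ cells, had 22.6% and 10%. Long introns weigh most in the pooled share, since hosts of this class run from 566 to 136204 nt. In non-coding hosts the shares were 92.4% for snoRNA, 77.5% for exon and 68.3% for other intron.

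**Figure D3:**
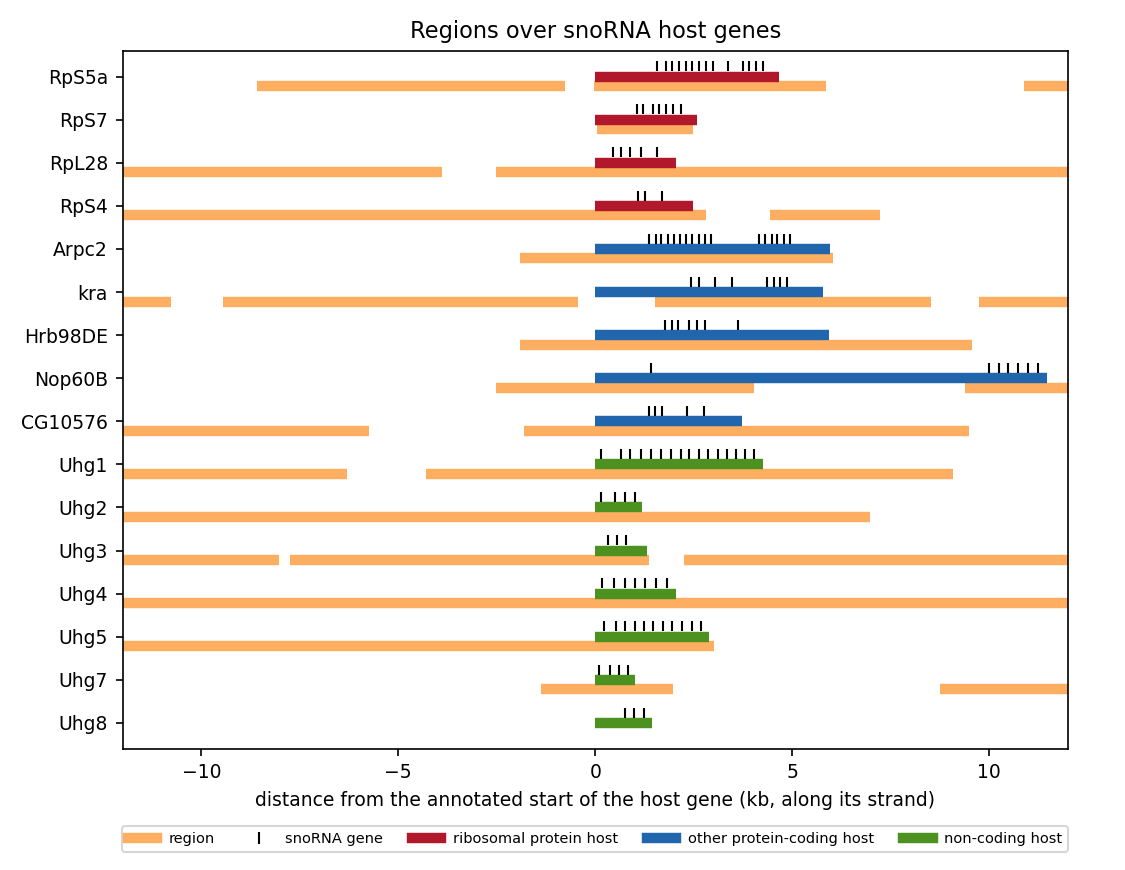
Host genes drawn along their strand from the annotated start (x axis, kb), with regions as orange bars, host genes in the color of their class and snoRNA genes as ticks, for 16 hosts chosen after their values were seen. The region over RpS7 ends inside the gene on both sides, Nop60B has separate regions at its ends, and Uhg8 has none.

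Taken over all members, cover was highest at the members themselves. At the center of the snoRNA gene 89.9% of positions were in a region, 4000 nt upstream 54.5% and 4000 nt downstream 55.3%, and at 20000 nt the shares were 19.5% and 23.3%, below the 29.4% of the assembled chromosomes. For members in ribosomal protein hosts the share was 100% at the center and 43.5% and 42.0% at 4000 nt, but the curve was not smooth, with 62.3% at 10000 nt upstream and, downstream, 26.1% at 6500 nt and 53.6% at 9500 nt. Over all members it was 54.5% at 10000 nt upstream, the same as at 4000 nt. In other protein-coding hosts it was 86.6% at the center and slightly higher, 87.5%, at 1000 nt downstream. In non-coding hosts it was 92.7% both at the center and at 1000 nt upstream. For that class it was 81.8% at 4000 nt upstream and 56.4% downstream, which rests on few hosts, since Uhg1 alone holds 16 of the 55 members. Beyond the host ends, regions covered a mean of 51.9% of the 2 kb upstream and 80.3% of the 2 kb downstream of ribosomal protein hosts, against 55.7% and 63.2% for ribosomal protein genes without a snoRNA.

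**Figure D4:**
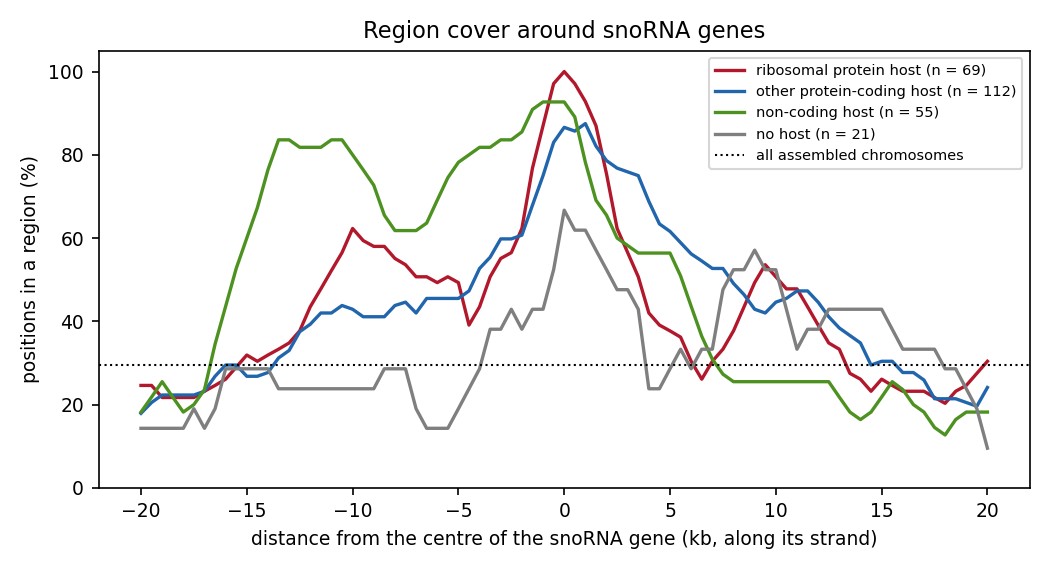
Percent of positions in a region (y axis) against distance from the center of the snoRNA gene along its strand (x axis, kb), by host class, with the assembled chromosomes as a dotted line. The curves stand at 100% (ribosomal protein hosts), 86.6% (other protein-coding hosts), 92.7% (non-coding hosts) and 66.7% (no host) at the center. At 10 kb upstream they stand at 62.3%, 42.9%, 80% and 23.8% in that order.

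The regions that held members were 72 of the 3356 (2.15%), with a median width of 8861 nt (2111 to 48213) against 6420 nt for the other 3283 regions on the assembled chromosomes. Their repeat-masked share had a median of 9.16%, against 16.04% for the others, and a median of 3 protein-coding genes overlapped each. Only 34 held a single member, while 15 held 5 or more and 3 held members of 2 or more hosts. snoRNA sequence made up a median of 2.235% of each region (0.124 to 40.0%). The widest, chr3L:27242660-27290872, held the 2 members of RpL15 and was 44.1% repeat-masked. Next came chr2R:19723321-19767748, with 1 member that has no host, no protein-coding gene and 85.9% repeat-masked sequence, and then chrX:6729373-6770772 with the 4 members of RpL17. The regions chr2L:8035867-8071685 and chr2R:11867377-11898964 held the members of RpL36A and eEF1alpha1, 1 each.

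Every member in a region lay in it whole, and 0 of 231 crossed an edge. The nearest edge was a median of 2414 nt away, with 47 members under 1000 nt and 9 under 250 nt from it. The U3 gene snoRNA:U3:9B (chrX:10348125-10348337), for the snoRNA that acts in rRNA processing rather than modification, began at the first base of the narrowest of these regions (chrX:10348125-10350235, 2111 nt). All 3 U3 genes were in regions.

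By chromosome, all 30 members on X and the single member on 4 were in regions, with 93.5% of 93 on 2R, 87.5% of 40 on 2L, 84.1% of 44 on 3R and 83.7% of 49 on 3L. The share of bases in regions did not follow that order, since it was lowest for X (21.9%), between 23.2% and 28.3% for 2L, 3R and 3L, 38.6% for 2R and 72.0% for 4. Only 3 members lay within 2 Mb of a centromeric end of the assembly, and without them 228 of 254 were in regions. Pericentromeric sequence was not delimited in any other way, so its part in the count was not tested.

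By class of snoRNA, 109 of 115 H/ACA genes (94.8%), 97 of 110 C/D genes (88.2%) and 25 of 32 whose symbol gives neither class (78.1%) were in regions. Within ribosomal protein hosts all 43 H/ACA and all 26 C/D genes were in, and in other protein-coding hosts 57 of 60 H/ACA and 20 of 25 C/D genes. By the RNA that the symbol names, the counts were 109 of 114 for 28S rRNA (95.6%), 60 of 67 for 18S rRNA (89.6%) and 18 of 24 for orphans, which have no assigned target (75%). Copy families were counted where symbols share a stem ending in a digit and differ in a final lower-case letter. They made up 37 groups with 119 members, of which 115 were in regions and 35 groups lay in 1 host. Copies named in other ways, such as lola-a and lola-b or U31:54Eb and U31:54Ec, were not counted. The Psi18S-525 family had 10 of 11 in, its copy k in Msp300 being outside, and the Me18S-U1356 family of Uhg8 had 0 of 3.

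The count was also split by sequence shared with other places in the genome. Of the 90 members with a 25-nt stretch found elsewhere in the genome 87 (96.7%) were in regions, and of the 167 without one 144 (86.2%). This split runs together with the number of members per host. Of the 37 hosts with 2 or more members, 36 had all of them in regions. The exception was Uhg8, whose members do carry such stretches. All members outside without such a stretch were in single-member hosts or had no host. The part of shared sequence apart from this was not tested. The study kept reads with several genomic matches when it searched for clusters and then required a density of unique piRNA reads, and the part of these reads was not tested. A repeat-masked base was found in 103 members. Identifiers of the FBgn0286 series, held by 14 members, were in regions in 6 cases (42.9%), against 225 of 243 (92.6%) for the others.

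The 26 members outside lay a median of 12903.5 nt from the nearest region (432 to 134769), with 2 under 1000 nt and 16 over 10000 nt. The members and hosts named from here were chosen after their values were seen. The nearest were snoRNA:83E4-5 in CG42564 at 432 nt and snoRNA:Pi4KIIalpha-a at 589 nt. Others lay in long genes such as Dys (dystrophin, 136204 nt), Rbfox1 (an RNA-binding protein, 112601 nt) and Msp300 (a nuclear envelope protein, 106126 nt), or in Act57B, an actin of muscle. Hosts of other protein-coding kind with a member in a region had a median length of 5040 nt (30 hosts), and those with none 14134 nt (15 hosts). The member in hts, which encodes the adducin of the spectrosome and fusome of early germ cells, was 8929 nt from a region although 30.1% of the gene was covered.

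The study states that mapped reads matching snoRNA sequences were set aside before reads were sorted into small RNA classes, and it defined piRNAs without them. Its account of the cluster search, which used another length range and kept reads with several matches, does not name this step again, so whether the regions were called without such reads is not settled by the text. Reads from the snoRNA genes, from their hosts' spliced or unspliced RNA and from the opposite strand cannot be told apart in a list of positions.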

How the data were processed

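The authors deposited 1 list of regions, whose values are start and end positions in dm6 with a score field of 0 in every row. They trimmed the small RNA reads, mapped them to transposable element sequences with Bowtie2 and the rest to dm6 with Bowtie, kept reads with several matches for this step, scanned windows for reads of piRNA length, merged neighbors, dropped regions under a density of 3 unique piRNA reads per kb and kept those above a minimum width. Libraries were not named for that scan, and mRNA libraries (18, in 6 groups) were not used here. Genes came from Ensembl release 115 and sequences from RefSeq, both for this assembly. No sequence from chromosome 2R was printed. A host was the shortest gene on the same strand that contains the snoRNA (12 members had more than 1 candidate). Identity between members is 100% minus their edit distance over the longer length. Values were computed with Python 3.11.15, NumPy 2.4.6 and pandas 2.3.3 and drawn with matplotlib 3.10.9, and the shifting of positions was tested on simulated data. The text names hosts with 3 or more members, ribosomal protein and non-coding hosts, the 5 widest regions and the region with most members, and any other gene named was chosen after its values were seen. Some hosts that this rule names are not reported here. Members, lists and hosts were chosen with earlier results of these data known. Alternatives were the overlap needed, a minimum width, merging, the biotype list, the centromeric ends, each chromosome in turn and the host rule.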

Additional observations from a re-analysis of the deposited data

How the results depend on the processing

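Of 41 alternative values, 33 stayed within 1.5 times the count first given and 8 did not. This compares raw counts, so leaving out a chromosome lowers the count by the members removed. Requiring at least 50% or all of the snoRNA gene in a region left 231. That count could not change, since every member in a region lay in it whole. Merging regions within 5000 nt gave 233. Keeping only regions at least 10000 nt wide gave 109 members in all (shifted range 24 to 95), 22 in ribosomal protein hosts (3 to 30), 41 in other protein-coding hosts (7 to 50), 8 with no host (1 to 11) and 25 hosts with a member. At 5000 nt the members with no host numbered 9 (1 to 12), and those in ribosomal protein hosts 50 of 69 (5 to 34). At 10000 nt the ribosomal protein, other protein-coding and no-host counts lay within the range of the shifted positions, as did the no-host count at 5000 nt, while the non-coding count (38, 0 to 35) and the count of all members stayed above it. Without chromosome 2R, 144 of 164 members were in regions (20 to 70). Allowing a host on either strand left 11 members with no host, 9 of them in regions. Taking the longest host where genes overlap, an alternative chosen after seeing the data, gave 73 members in ribosomal protein hosts and 63 hosts with a member. Under that rule 42 of 46 members in non-coding hosts were in regions (0 to 35). No paired analysis was possible because a region in the list is tied to no sample. Region boundaries have no replicate and no read depth, so how firmly any 1 region is placed is unknown.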
